A study of Rattus with 6 samples.

Results

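The mitochondrial genome carries its own protein genes, all of them subunits of the respiratory chain and the ATP synthase. Of the 13 such genes in the deposited table, 10 are described here, namely ND1, ND2, ND4 and ND5 of complex I, CYTB of complex III, COX1, COX2 and COX3 of complex IV, and ATP6 and ATP8 of complex V. They were found as rows whose gene symbol equals one of these names, in capitals and without a prefix, and all 10 were present among the 16690 genes of the table. None was lost to the filter on low values. COX1 and COX2 (NCBI Gene 26195 and 26198) are here the oxidase subunits, not the prostaglandin synthases of the same nickname. The other 3 genes, ND3, ND4L and ND6, serve for comparison.

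Mitochondrial genes are transcribed as long polycistronic RNAs that are cut at the flanking transfer RNAs into single messages and given short poly-A tails. The level of a message therefore depends on transcription that is shared along a strand and on stability and processing that are its own. The proteins sit in the inner membrane as the core of complexes whose remaining subunits are encoded in the nucleus. Mesenchymal stem cells of the marrow are known for a largely glycolytic metabolism in culture, with more use of mitochondria when they differentiate.

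RNA was sequenced from mesenchymal stem cells (BMSC), adherent stromal cells that can form bone, fat and cartilage, grown out of the marrow of leg bones of Sprague Dawley rats. In the CKD group (3 libraries) the rats carried a chronic kidney disease model, and in the control group (3 libraries) they were healthy. How the model was made, and the age of the animals, are not given in the sources used here. All 6 libraries have a wild-type genotype, and both groups were grown in the same serum-containing medium and used at passages 3 to 5. The extract protocol names exosomes and the design text names cells, so which RNA was sequenced is not known.

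The libraries held 34404037 to 43055203 fragments in CKD and 38289955 to 46892613 in control, as recovered from the table. The disease model tag goes against the other labels in CKD replicate 1 and control replicate 2, and the same 2 libraries are left out together as an alternative. Both replicates numbered 1 stood apart from the other libraries of their group in the expression of marker genes. In the haematopoietic, stromal and adipocyte marker sums below, CKD replicate 1 and control replicate 1 lay nearer to each other than to their own groups. Markers of haematopoietic cells and macrophages, 18 genes in all, summed to 298, 3353 and 2269 FPKM in CKD (replicate 1, 2 and 3), against 415, 22.5 and 14.8 FPKM in control. FPKM is a fragment count divided by gene length and library depth. The labels describe the cultures as CD45-, and Ptprc, the CD45 gene, had 15.5 and 11.4 FPKM in the second and the third CKD library, with at most 1.33 FPKM elsewhere. Among the macrophage markers, picked out after their values were seen, C1qc, C1qb and Adgre1 were listed at 0 in control replicate 3, and C1qc also in control replicate 2. The 11 stromal markers were detected in every library and summed, mostly through Col1a1 and Col1a2, to 12077, 7141 and 7087 FPKM in CKD, against 12430, 7962 and 8165 FPKM in control, with Itgb1 (CD29) at 847 to 1098 FPKM in CKD and 985 to 1204 FPKM in control. Thy1 (CD90) stood at 505 to 572 FPKM in CKD and 590 to 801 FPKM in control. Of the 11, 7 had a negative and 4 a positive log2 fold change with 0 called. The median FPKM of the list was 119, 321 and 286 in CKD and 133, 115 and 118 in control, so the groups overlapped. The lowest marker, Vcam1, stood at 2.12 to 8.78 FPKM in CKD and 0.829 to 1.80 FPKM in control. The 6 endothelial markers summed to at most 8.57 FPKM in CKD and 13.6 FPKM in control. The 5 adipocyte markers that were matched summed to 10.6, 162 and 169 FPKM in CKD and to 10.7, 2.54 and 2.54 FPKM in control. No erythroid marker symbol was matched to the table.

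The 10 mitochondrial genes were among the most highly expressed of all. COX1, COX3, COX2, ATP6 and CYTB held the 5 highest mean levels in the table, and all 10 ranked within the 40 highest. Together the 10 genes took 4.95%, 5.04% and 4.91% of all recovered fragments in CKD, against 4.94%, 5.49% and 5.28% in control, in replicate order. The groups overlapped, since control replicate 1 lay among the CKD libraries, while control replicates 2 and 3 lay above all the others. The CKD mean was 4.97% ± 0.0657 and the control mean 5.24% ± 0.280 (SD, n = 3 each). Counting error was small beside this, with Wilson 95% intervals of at most 0.00731 percentage points to either side. Intervals cover counting error only. A lower share can reflect fewer mitochondrial messages per cell or more of other RNA, and these cannot be told apart in bulk RNA.

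Per length, the order of the messages ran from COX1 at the top to ATP8 at the bottom. Mean levels over the 6 libraries spanned an 11.2-fold range, from 12605 FPKM for COX1 to 1130 FPKM for ATP8. ATP8 is short, overlaps ATP6 and shares its message, so its low value need not mean a scarcer message. COX3 followed COX1 at 8501 FPKM and COX2 at 7427 FPKM, and each of these steps held in 6 of 6 libraries without overlap. ATP6 (5454 FPKM) and CYTB (5368 FPKM) did not differ beyond their spread, and ATP6 was the higher one in 4 of 6 libraries. The 4 complex I messages stood lower, with ND4 at 2558 FPKM, ND2 at 2103, ND1 at 1758 and ND5 at 1274. The step between CYTB and ND4 held in every library without overlap. ND5 and ATP8 kept their order in all 6 libraries, yet their ranges nearly touched, the lowest ND5 value being 1221 FPKM and the highest ATP8 value 1219 FPKM. Of the other 3 genes, ND3 (2509 FPKM) and ND4L (2227 FPKM) fell between ND4 and ND2 with overlapping ranges, and ND6 was the lowest of the 13 at 489 FPKM. The libraries were poly-A selected, and how differences in tail length between the messages enter these levels was not tested. Nuclear copies of mitochondrial sequence exist in mammals, and whether their reads were kept apart from these genes is not given in the sources used here.

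**Figure D1:**
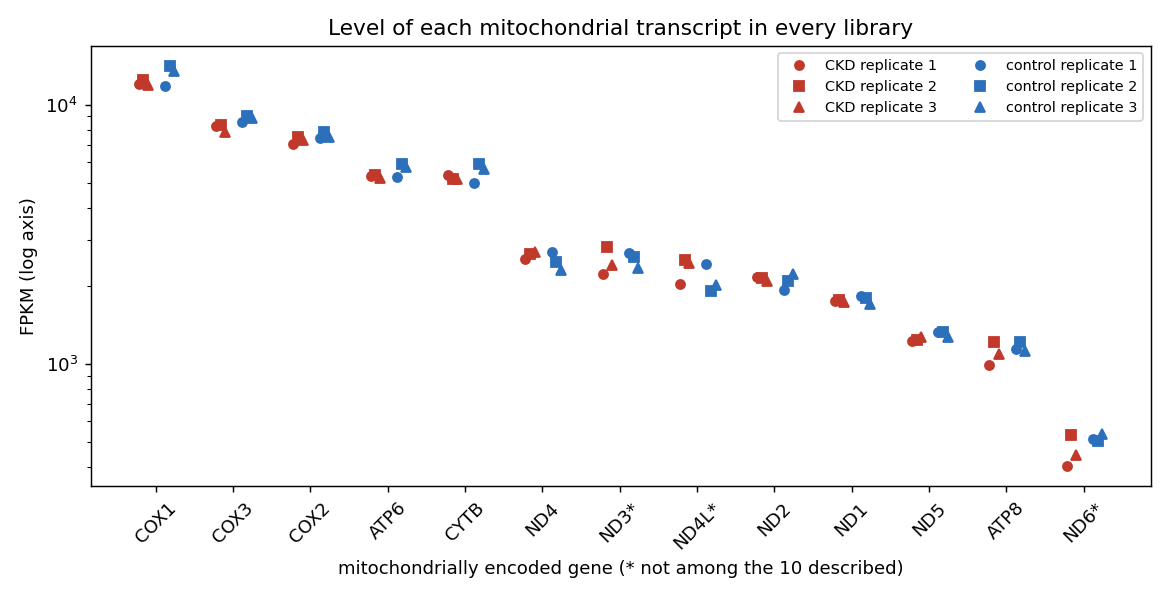
FPKM (log axis) of each of the 13 mitochondrially encoded protein genes, ordered by mean level, with 1 point per library, CKD in red to the left of control in blue. The 3 cytochrome c oxidase genes form the top of the order in every library, and CKD and control points overlap for 9 of the 10 genes described.

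For none of the 10 genes did the difference between CKD and control pass the test. CKD was compared with control by limma on log2(FPKM + 1) over 10638 genes that reached at least 1 FPKM in at least 3 libraries, with Benjamini-Hochberg adjustment. In that comparison 2.07% of tested genes were called at an adjusted p under 0.05, and 0 of the 10 were. At an unadjusted p under 0.05 there were 0 of the 10, against 22.1% of all tested genes. The 10 log2 fold changes lay between -0.11 and 0.083, with a median of -0.073, beside a median of 0.053 over all tested genes. Limma adjusted p-values ran from 0.601 for COX3 to 0.906 for ND1. Each SE, interval and p-value rests on limma's moderated SD, which borrows from genes of like abundance. For all 10 genes it was larger than the gene's own residual SD. On the log2 scale it was 0.106 against 0.035 for ND5, 0.140 against 0.042 for COX2 and 0.139 against 0.115 for ATP8. Without the mean-variance trend, an alternative chosen after seeing the data, 0 of the 10 had an unadjusted p under 0.05 (limma) as well. The 2 groups failed to overlap for 1 of the 10 genes (COX3), where the background is 27.8% of tested genes. Without both replicates numbered 1, which stood apart, the 10 values lay between -0.18 and 0.17 with 0 called, and without both libraries with conflicting tags between -0.11 and 0.10 with 0 called.

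Complex I pumps protons as it passes electrons from NADH to ubiquinone. ND1 forms part of the path to its quinone site, and ND2, ND4 and ND5 are its antiporter-like pumping subunits. ND1 stood at 1747, 1756 and 1727 FPKM in CKD, and at 1827, 1791 and 1699 FPKM in control, in replicate order as throughout. The CKD values lay within the control range, and the log2 fold change was -0.023 ± 0.091 (SE; 95% interval -0.25 to 0.20). ND2 stood at 2166, 2145 and 2084 FPKM in CKD, and at 1922, 2086 and 2214 FPKM in control. Control libraries held both the lowest and the highest value, and the log2 fold change was 0.042 ± 0.10 (SE; 95% interval -0.21 to 0.30). Its sign turned to -0.040 with libraries scaled by size factors and to -0.020 with scaling by upper quartile, in both cases uncalled.

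ND4 had 2543, 2642 and 2699 FPKM in CKD, and 2709, 2461 and 2291 FPKM in control. Control replicate 1 was the highest of all 6 libraries and control replicates 2 and 3 were the lowest. The log2 fold change was 0.083 ± 0.11 (SE; 95% interval -0.19 to 0.36), which shrank to 0.0017 with libraries scaled by size factors. ND5 had 1221, 1238 and 1265 FPKM in CKD, and 1330, 1330 and 1263 FPKM in control. The groups met at CKD replicate 3 and control replicate 3, and the log2 fold change was -0.075 ± 0.087 (SE; 95% interval -0.29 to 0.14). Of the complex I genes that are not among the 10, ND4L, which shares its message with ND4, stood at 2040, 2519 and 2457 FPKM in CKD and at 2428, 1902 and 2014 FPKM in control. It too was high in control replicate 1 and low in control replicates 2 and 3.

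CYTB is the haem-carrying, quinone-binding core of complex III, which passes electrons on to cytochrome c. It stood at 5371, 5150 and 5171 FPKM in CKD, and at 4994, 5891 and 5633 FPKM in control. Control replicate 1 was the lowest of the 6 libraries and the remaining controls were the highest. The log2 fold change was -0.071 ± 0.12 (SE; 95% interval -0.37 to 0.23).

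Cytochrome c oxidase, complex IV, hands electrons to oxygen. COX1 holds its haem and copper reaction centre, COX2 takes electrons from cytochrome c, and COX3 is the remaining core subunit made in the mitochondrion. COX1, the most abundant message of the whole table, stood at 11994, 12398 and 11928 FPKM in CKD, and at 11755, 14095 and 13460 FPKM in control. Control replicate 1 was the lowest library, below every CKD library, and the other controls were the highest. The log2 fold change of COX1 was -0.11 ± 0.14 (SE; 95% interval -0.45 to 0.23). COX2 had 7068, 7496 and 7304 FPKM in CKD, and 7402, 7813 and 7481 FPKM in control, and the groups overlapped between CKD replicate 2 and control replicates 1 and 3. Its log2 fold change was -0.054 ± 0.11 (SE; 95% interval -0.33 to 0.23).

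COX3 had 8303, 8326 and 7869 FPKM in CKD, and 8569, 9053 and 8889 FPKM in control. All CKD values lay below all control values, the 1 such case among the 10. The mean was 8166 ± 258 FPKM over the CKD libraries and 8837 ± 246 FPKM over the controls (SD, n = 3 each). The log2 fold change was -0.11 ± 0.12 (SE; 95% interval -0.40 to 0.17), with a limma adjusted p of 0.601. The residual SD of COX3 itself was 0.043 on the log2 scale, and limma's moderated SD, which borrows from genes of like abundance, was 0.143. Without the mean-variance trend, an alternative chosen after seeing the data, the adjusted p of COX3 was 0.378, the lowest of the 10 in that fit.

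ATP6 forms the proton path of the ATP synthase and ATP8 is a small subunit beside it. The genes overlap and share a message, and counting settings are not given in the sources used here, so fragments in the overlap may have been dropped or split. ATP6 stood at 5297, 5347 and 5211 FPKM in CKD, and at 5256, 5886 and 5725 FPKM in control. Control replicate 1 lay within the CKD range, and the other controls above it. The log2 fold change of ATP6 was -0.088 ± 0.11 (SE; 95% interval -0.37 to 0.19). ATP8, the shortest of the 10 at 204 nucleotides, stood at 987, 1219 and 1095 FPKM in CKD, and at 1144, 1213 and 1121 FPKM in control. CKD libraries held both the lowest and the highest value, and the log2 fold change was -0.081 ± 0.11 (SE; 95% interval -0.36 to 0.20). ATP8 reached 0.186, 0.228 and 0.210 of the ATP6 level in CKD and 0.218, 0.206 and 0.196 of it in control, per length.

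**Figure D2:**
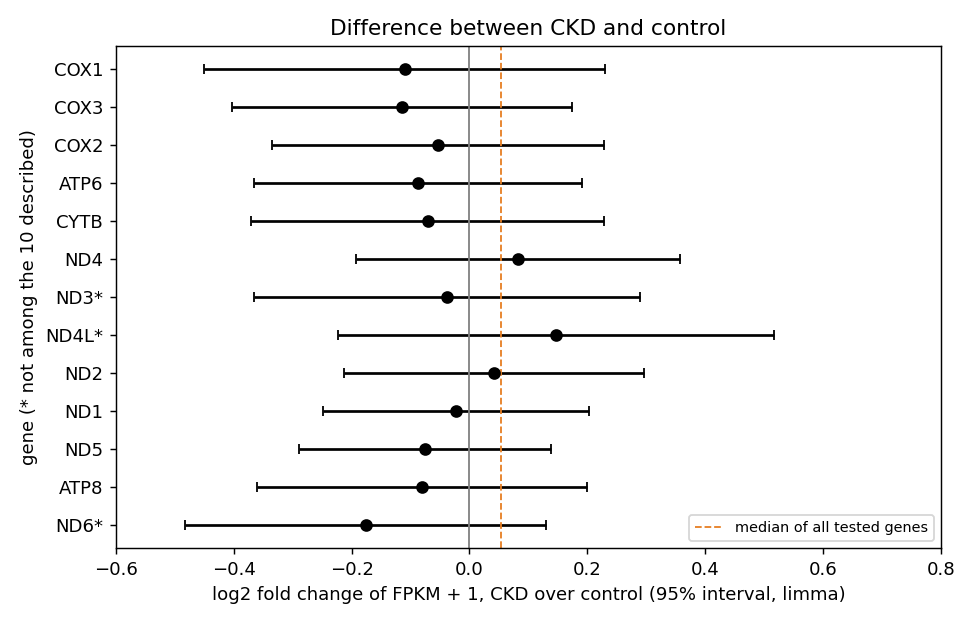
Log2 fold change of FPKM + 1, CKD over control, with its 95% interval from limma, for the 13 mitochondrially encoded genes in the order of their levels. All intervals span 0 and the 10 genes described lie between -0.11 and 0.083, while the dashed line marks the median of all tested genes at 0.053.

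In the authors' deposited table the 10 genes had log2 fold changes of -0.20 to -0.0014, all 10 negative, with the lowest q-value at COX3 and the highest, 0.996, at ND4. None of these q-values was under 0.05, where 1889 of the 16690 genes (11.3%) were. COX3, COX2 and ND5 had deposited p-values of 0.0153, 0.0177 and 0.0234 in that table, where 22.9% of all genes had a p under 0.05. Deposited group means are scaled by size factors, and the same scaling applied to FPKM moved the 10 values to between -0.20 and 0.0017. It moved the median over all tested genes by less, to -0.016. Every gene of a library is divided by the same factor, and the 1 FPKM added before the log damps the move in lower genes.

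The spread of the 10 mitochondrial messages over the 6 libraries was small. Coefficients of variation ran from 2.60% for ND1 to 7.60% for ATP8. The SD of log2(FPKM + 1) was smaller than that of ND1 in 0.555% of tested genes, and smaller than that of ATP8 in 22.3%, with the other 8 genes between these. ND3, ND4L and ND6, which are not among the 10, varied more, with coefficients of 8.79%, 12.1% and 10.9%. A smaller SD than theirs was found in 28.7%, 47.7% and 43.6% of tested genes. Counting error at the least counted gene of the 10, ATP8 with 7767 to 10945 fragments, was at most 1.13% of its value.

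The small deviations were not the same for every gene. COX1, CYTB and ATP6 were each highest in control replicates 2 and 3, by 0.072 to 0.16 on the log2 scale over the mean of the gene, and at or below 0.0030 in the other 4 libraries. ND4 showed the opposite order, at -0.053 and -0.16 in control replicates 2 and 3, and between -0.0055 and 0.085 in the other 4 libraries. The level of ND4 per level of COX1 was 0.212, 0.213 and 0.226 in CKD, and 0.230, 0.175 and 0.170 in control, so control replicate 1 sat with CKD. These 2 control libraries were also those with the lowest haematopoietic marker sums, 22.5 and 14.8 FPKM, where the other 4 libraries had 298 to 3353 FPKM. The part of such cells in the result was not tested. The shortest genes, ATP8, ND4L, ND3 and ND6, shared a low value in CKD replicate 1, at -0.12 to -0.27, and a high value in CKD replicate 2, at 0.11 to 0.19.

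**Figure D3:**
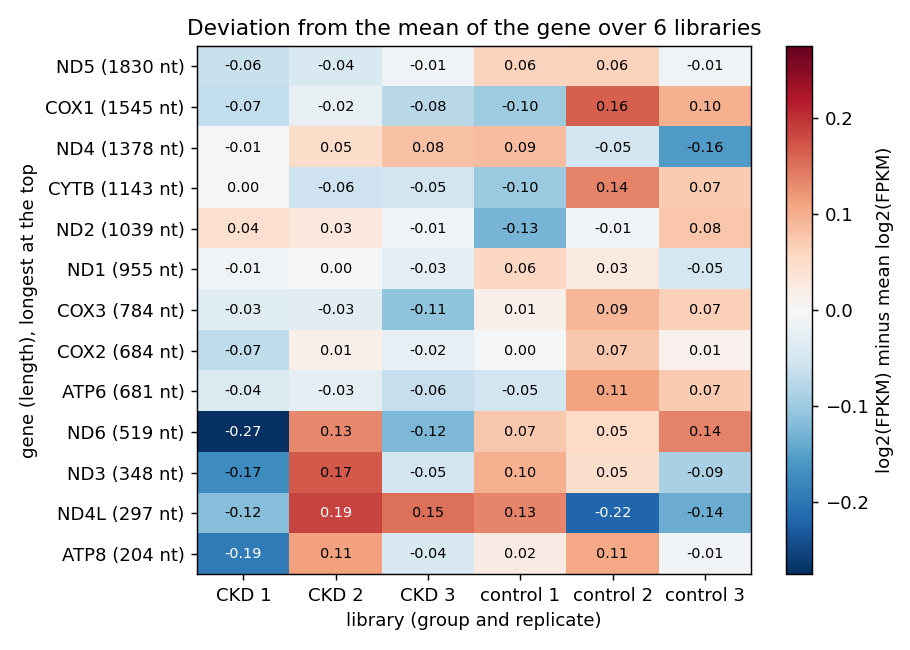
Log2 deviation of each gene from its own mean over the 6 libraries, CKD libraries to the left of control libraries, genes ordered by length with the longest at the top. COX1, CYTB and ATP6 are high in control 2 and 3 (0.072 to 0.16), ND4 is low there (-0.053 and -0.16), and the 4 shortest genes are low in CKD 1 and high in CKD 2.

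Read by complex, the summed FPKM of the 10 genes was divided much alike in all libraries. Complex IV messages made up 58.6%, 59.1% and 58.5% of it in CKD and 59.1%, 60.0% and 59.9% in control. Complex I messages made up 16.4%, 16.3% and 16.8% in CKD, and 16.6%, 14.9% and 15.0% in control, where control replicates 2 and 3 lay below every other library. For complex V the share was 13.5% to 13.8% in CKD and 13.6% to 13.8% in control, and CYTB alone held 10.8% to 11.5% in CKD and 10.6% to 11.4% in control. ND2 was the 1 gene of the 10 whose share of the sum did not overlap between groups, at 4.49% to 4.64% in CKD and 4.04% to 4.45% in control. The FPKM of ND2 itself did overlap, and over all tested genes the FPKM of 27.8% did not.

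Nuclear genes of the same complexes were measured beside them. Complexes I to V had 81 tested nuclear genes and limma called 0 of them, with 5 higher and 1 lower at an unadjusted p under 0.05, where all tested genes gave 2.07% called and 22.1% at that p. Their median log2 fold change was 0.033, against -0.073 for the 10 mitochondrial genes and 0.053 for all tested genes. By complex the medians were 0.014 for 37 genes of complex I, 0.15 for 4 of complex II, which has no mitochondrially encoded subunit, 0.027 for 9 of complex III, 0.070 for 14 of complex IV and 0.058 for 17 of complex V. The summed FPKM of the 10 mitochondrial genes was 7.03, 6.39 and 6.61 times that of the nuclear genes in CKD, and 6.95, 7.52 and 7.18 times in control. These ratios overlapped, with control replicate 1 below CKD replicate 1. The largest log2 fold change among the nuclear subunits, picked out after its values were seen, was that of Cox4i2, an isoform of a complex IV subunit, at 2.67. It stood at 1.48, 18.5 and 14.5 FPKM in CKD and at 1.14, 0.269 and 0.0732 FPKM in control, high in the 2 CKD libraries with the highest haematopoietic marker sums (limma adjusted p = 0.148).

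The machinery that makes and keeps mitochondrial messages was next. Of 8 tested genes of mitochondrial transcription 0 were called, with 7 positive log2 fold changes and a median of 0.17. Over all tested genes 2.07% were called, 6321 of 10638 were positive and the median was 0.053. The groups did not overlap for 2 of the 8, where the share over all tested genes was 27.8%. Tfam, which packages mitochondrial DNA and starts its transcription, had a log2 fold change of 0.34 ± 0.11 (SE) with a limma adjusted p of 0.163. The CKD values of Tfam, 10.3, 13.4 and 12.2 FPKM (mean 12.0 ± 1.60 SD), all lay above the control values, 9.53, 8.51 and 9.51 FPKM (mean 9.18 ± 0.582 SD). Polrmt, the mitochondrial RNA polymerase, stood at 1.46, 1.28 and 1.45 FPKM in CKD, against 1.31, 1.33 and 1.32 FPKM in control (limma adjusted p = 0.763).

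Of 21 tested genes of mitochondrial RNA processing and stability 0 were called, with 17 positive and a median of 0.11. Over all tested genes 2.07% were called and 6321 of 10638 were positive. The groups did not overlap for 7 of the 21, beside 27.8% of all tested genes. Lrpprc, which stabilizes mitochondrial messages together with Slirp, had 14.4, 15.0 and 15.0 FPKM in CKD, and 14.0, 12.0 and 11.7 FPKM in control. Control values lay below all CKD values, and the log2 fold change was 0.22 ± 0.085 (SE) at a limma adjusted p of 0.210. Slirp had a mean of 7.68 ± 1.11 FPKM in the CKD libraries and 6.99 ± 0.417 FPKM in the controls (SD, n = 3 each, limma adjusted p = 0.589).

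Genes of mitochondrial DNA replication held the 1 called gene of all 13 nuclear mitochondrial lists, in which 260 genes were tested, beside 2.07% called over all tested genes. Primpol, a primase and polymerase that restarts stalled replication in nucleus and mitochondrion, rose to 2.53, 2.66 and 2.72 FPKM in CKD, against 1.46, 0.998 and 1.16 FPKM in control. The log2 fold change of Primpol was 0.73 ± 0.10 (SE) at a limma adjusted p of 0.0429. The call was lost without CKD replicate 2 (limma adjusted p = 0.199), CKD replicate 3 (0.229), control replicate 2 (0.153) or control replicate 3 (0.210), with the log2 fold change at 0.66 to 0.72. The call did not hold either once the 2 libraries with conflicting tags were left out, in a fit of 4 libraries with a log2 fold change of 0.68 (limma adjusted p = 0.0782). Grouped by the disease model tag, the log2 fold change of Primpol was 0.18. Polg, the replicating polymerase, had a mean of 6.03 ± 0.495 FPKM in the CKD libraries and 6.54 ± 0.745 FPKM in the controls (SD, n = 3 each, limma adjusted p = 0.611). Twnk, the replicative helicase, had a mean of 2.96 ± 0.255 FPKM in the CKD libraries and 2.45 ± 0.292 FPKM in the controls (SD, n = 3 each, limma adjusted p = 0.295). The median over the 10 tested replication genes was -0.00087.

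Genes that build mitochondrial proteins and complexes gave 0 calls as well. The mitochondrial ribosome had 74 tested genes, of which 52 lay above 0 on the log2 scale, and the median of the 74 was 0.072. Over all tested genes 6321 of 10638 lay above 0. At an unadjusted p under 0.05, 17 were higher and 4 lower, where 22.1% of all tested genes passed in either direction. The groups did not overlap for 25 of the 74, where the share over all tested genes was 27.8%. Translation factors (12 tested) had a median of 0.016 and complex assembly factors (34 tested) one of 0.023, and genes of mitochondrial dynamics and mitophagy (11 tested) had one of 0.045. The groups did not overlap for 4 of the 12, 14 of the 34 and 1 of the 11, beside 27.8% of all tested genes. Of the assembly factors, 5 were higher and 4 lower at an unadjusted p under 0.05 (limma). Among 9 tested regulators of biogenesis the median was 0.11, with 7 positive and 2 negative log2 fold changes. At an unadjusted p under 0.05 (limma), 0 of these regulators were higher and 1 was lower. Nrf1, a transcription factor for nuclear respiratory genes, had a mean of 1.39 ± 0.0504 FPKM in the CKD libraries and 1.11 ± 0.182 FPKM in the controls (SD, n = 3 each, limma adjusted p = 0.318). Ppargc1a, which encodes the coactivator PGC-1alpha, did not reach the filter, with 0.0104, 0.303 and 0.428 FPKM in CKD and 0.00854, 0.0288 and 0.0131 FPKM in control.

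**Figure D4:**
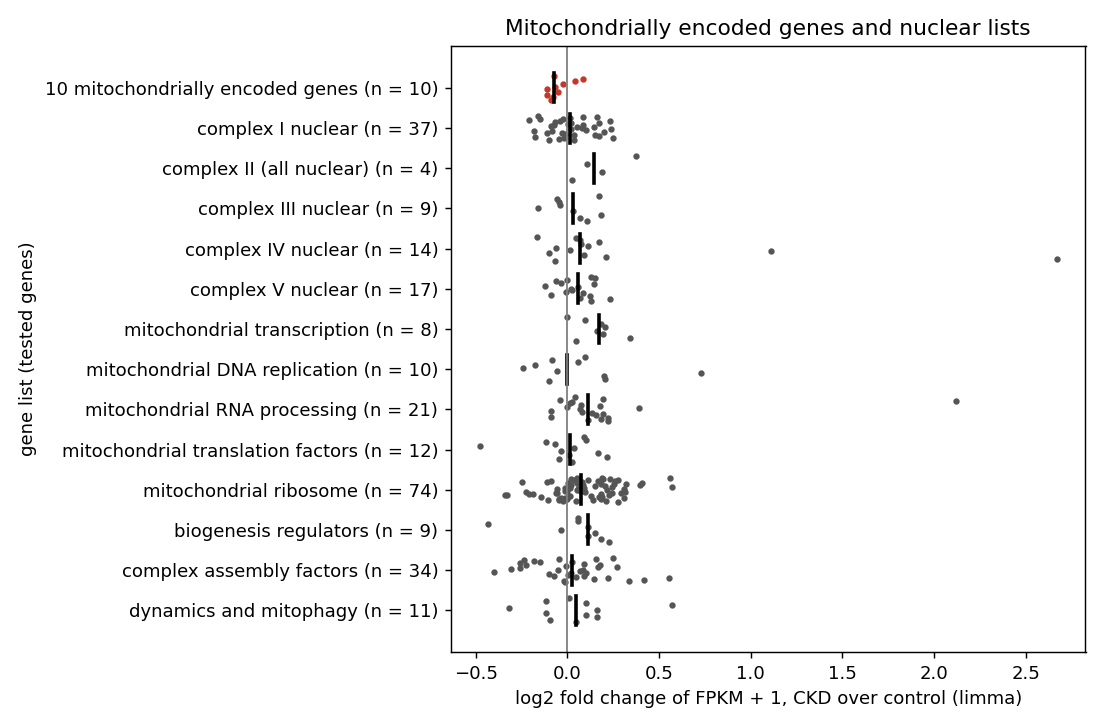
Log2 fold change of FPKM + 1, CKD over control, with 1 point per tested gene, for the 10 mitochondrially encoded genes at the top and 13 lists of nuclear genes below, with black bars at the list medians. The 10 genes lie between -0.11 and 0.083 (median -0.073), and the list medians lie between -0.00087 and 0.17.

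By their pattern over the 6 libraries, 5 nuclear genes were most like the mean log2(FPKM + 1) of the 10 genes. They came out of 4655 tested genes with a mean of at least 10 FPKM. They were Htra2, a protease of the mitochondrial intermembrane space (Pearson r = 0.980), Fam114a2 (0.971), Bcas2, a component of the spliceosome (0.962), Brox (0.957) and Srp14, a part of the signal recognition particle (0.947). These values describe 6 libraries that share their depth and FPKM scale, and 26 candidates had a value above 0.9. The mean is not a pattern that all 10 genes share. Pearson r was 0.989 between ATP6 and COX1, but -0.786 between COX1 and ND4 and -0.850 between ND1 and ND2. Htra2 stood at 17.5, 18.8 and 17.6 FPKM in CKD, and at 18.3, 20.5 and 19.6 FPKM in control, the pattern by which it was chosen.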

How the data were processed

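Libraries were stranded and selected for poly-A, per the labels' protocols. The deposited data are 1 table, in which 16690 genes each have an FPKM value for every library. Per the file headers it also holds group means of normalized counts, a fold ratio and its log2, and p and q values (p-value and q-value columns). The submitters' processing notes name HISAT2 2.1.0, HTSeq 0.11.2, DESeq2 1.22.2 and the build mRatBN7.2, with no settings. Decimal commas were read as points.

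Whole fragment counts were recovered from FPKM and group means, and 100% of values were whole within 0.01. They gave depth, shares, gene lengths and 1 alternative. Groups and replicate numbers follow the column codes. The design text calls the libraries biological replicates but the labels tie none to a single animal, so p-values measure the spread between libraries, which may be partly technical. Some libraries of the same group share the start of their library name, and whether they share an origin is not known. An alternative averages them.

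CKD was compared with control across all genes in R 4.3.3 with limma 3.58.1. Values were log2(FPKM + 1) of genes that reached 1 FPKM in 3 or more libraries, the prior followed the trend of variance with level, no covariate was used, and p-values were adjusted by Benjamini-Hochberg. Fold changes on this scale understate low genes. The fit was tested on simulated data. Intervals of shares are Wilson (statsmodels 0.14.6).

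The members and lists were chosen with earlier results of these data known. Of 274 entries in the 13 nuclear mitochondrial lists, 271 were matched to the table by symbol or NCBI Gene number. Named are the 10 genes, up to 3 called genes per list, 8 fixed regulators, 3 cell type checks and 5 genes of most alike pattern. Cox4i2, Vcam1, Col1a1, Col1a2, C1qb, C1qc and Adgre1 were named after their values were seen. The closing section gives the effect of the alternatives.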

Additional observations from a re-analysis of the deposited data

How the results depend on the processing

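None of the 10 genes was called by limma in any of the 18 alternatives, of which the one without the mean-variance trend was chosen after seeing the data, and the lowest adjusted p was 0.0791 (ND4 without both replicates numbered 1, in a fit of 4 libraries that called 3689 genes higher and 2162 lower). Of 180 values, 168 kept their direction and 12 reversed, all uncalled. ND2 was -0.040 with size factors, -0.020 with upper quartiles, -0.012 to 0.090 without 1 library (below 0 without control replicate 1) and -0.024 without both replicates numbered 1. ATP8 was 0.028 without both libraries with conflicting tags. Grouped by the disease model tag, the values were 0.014 for ATP6, 0.12 for ATP8, 0.045 for COX1, 0.043 for COX2, 0.018 for CYTB, 0.00042 for ND1 and 0.0074 for ND5.

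The number of called genes over the whole table, 142 higher and 78 lower, depended on the libraries. Leaving out 1 library at a time gave 1 to 1139 higher and 5 to 546 lower. The counts were above the full ones without CKD replicate 1 (1139 and 463) or control replicate 1 (733 and 546), and at most 3 and 7 without any 1 of the other 4. It was 81 higher without a filter on low values, 60 and 28 with the replicate block, 55 and 42 when limma-voom took the recovered counts, and 237 higher without both libraries with conflicting tags. With groups by the tag it was 0 and 0, and with libraries that share a name start averaged 1 and 3. A pseudocount of 0.1 gave 111 and 75, and library totals without the 10 genes 141 and 79. For the nuclear mitochondrial lists, 1 higher and 0 lower, it was 0 to 16 higher and 0 to 4 lower without 1 library. It was 79 higher and 30 lower without both replicates numbered 1, and 3 higher without both libraries with conflicting tags. Size factors added 1 lower. It was 0 higher without the filter, in limma-voom, with the replicate block, by the tag and with name starts averaged. The members' mean share of the FPKM total was 11.2% in CKD and 11.9% in control. Deviations of same-numbered libraries had correlations across genes of 0.036, -0.031 and 0.11 (numbers 1, 2 and 3), and the numbers were not taken as pairs. Such a correlation cannot settle pairing, since deviations shared by some genes can cancel against others. Col1a1 had 5299 and 5881 FPKM in CKD and control replicate 1, against 2620 to 3000 FPKM elsewhere. The haematopoietic marker sum was the lowest of its group in CKD replicate 1 and the highest of its group in control replicate 1. The block changed no call of the 10 genes, while Primpol had a limma adjusted p of 0.0877 with it. Depth limits little here, since 3 fragments were worth at most 0.427 FPKM for ATP8. No group has 4 libraries, so single libraries were not tested for standing apart.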
